A study of Mus musculus with 15 samples.

Results

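Large intergenic noncoding RNAs (lincRNAs) of mouse liver were examined at the probes that lay near the detection limit of the array. A probe was taken as a member when its description named a lincRNA, it was no control, and its signal was well above background on at least 3 and at most 14 of the 15 arrays. That flag is set by the scanner software for each spot, and it is called "on" here. Of 16251 lincRNA probes, 3601 met the rule, while 1013 were on for every array, 11637 were on for 0 to 2 arrays, and 9404 of the latter were on for none. The whole array held 55681 different probes that are no controls. The rule used the flag on all arrays without their groups, so detection by group is given below as a description, and members had to differ between arrays to be included at all. Just inside the limits, 624 members were on for 3 arrays and 199 for 14 arrays, with median probe means of 6.11 and 6.68 on the log2 scale. Just outside, 731 lincRNA probes were on for 2 arrays (median 6.09) and 1013 for all 15 (median 7.60). The members therefore began at a level that hardly differed from that of probes just outside the rule.

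RNA came from livers of male CD1 mice in 3 groups, all of which received 50 μg of plasmid by hydrodynamic gene delivery, the fast injection of a large volume into a vein that carries DNA into liver cells. Group C was given saline and the empty plasmid, group T was given diethyl nitrosamine (DEN, a liver carcinogen) and the empty plasmid, and group G was given DEN and a plasmid that drives a tagged *Gas1* (growth arrest specific 1) from the CAG promoter. The labels state an age of 10 weeks for every mouse, whereas by the study's methods DEN was injected in infancy and the livers were taken at an adult age after tumours had formed. There were 4 arrays of C, 5 of T and 6 of G on 2 slides, and no slide lacked a group. The file headers give the same RNA code for arrays C3 and C4, and also for arrays T4 and T5. The SD of the difference C3 minus C4 over probes on for all arrays was 0.576 times that of the closest other pair of C arrays, below a limit of 0.7, so these were averaged (C3/C4), which left 14 samples. The SD of T4 minus T5 (0.200) was close to that of C3 minus C4 (0.198), but another T pair, T3 and T5, was also close (0.253). The ratio of the T pair was thus 0.789, so T4 and T5 were kept apart although their RNA code is the same. The 14 samples may come from fewer livers. The main count of calls of each comparison is therefore given a second time with T4 and T5 averaged, as 13 mice. A change is called a rise or a fall only where both counts of mice passed the test. By hydrodynamic delivery only part of the liver cells take up a plasmid, and the labels do not say whether tumour was separated from the rest of the liver.

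LincRNAs are transcribed from stretches between protein-coding genes, are usually spliced and polyadenylated, and give rise to no known protein. Most are far less abundant than messenger RNAs and are restricted to certain tissues or stages. A few are well studied, among them H19, an imprinted RNA that is abundant in fetal liver and scarce in the adult organ, Malat1 (also called NEAT2), a nuclear RNA, and Airn, which silences neighbouring genes on the paternal chromosome. Each 60-base probe of the array was placed inside an interval of the mm9 genome that the files give with a strand, and most intervals have no gene name. In RNA from whole liver, fewer cells of a type and less RNA per cell cannot be told apart.

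The probe sequences that the results turn on are printed as the files list them. The first set is shown because 4 members on chromosome 2 had much of their sequence in common, and their values were therefore not separate observations of different loci. Capitals mark the 23 bases that A_30_P01029117, A_30_P01026482 and A_30_P01028205 shared, and in A_30_P01032435 the 34 bases that it shared with A_30_P01028205.
A_30_P01029117: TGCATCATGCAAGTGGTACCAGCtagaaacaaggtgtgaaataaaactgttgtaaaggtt
A_30_P01026482: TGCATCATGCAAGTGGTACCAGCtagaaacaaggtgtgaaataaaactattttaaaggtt
A_30_P01028205: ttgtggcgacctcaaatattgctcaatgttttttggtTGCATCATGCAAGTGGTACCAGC
A_30_P01032435: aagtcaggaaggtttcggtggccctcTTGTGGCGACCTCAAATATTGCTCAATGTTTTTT
The first and second of these were identical at 58 of 60 positions and had an unbroken run of 48 bases in common.

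The second set is shown because the members that were lower in T were rich in A and G, the purine bases, at the start of the probe. Capitals mark the first 20 bases. These are examples chosen after their values were seen. The first 5 probes were called lower in T than in C, of which A_30_P01022842 alone passed with both counts of mice described above. The last 3 are given for contrast. A_30_P01018660 and A_30_P01021059 rose in T, and A_30_P01021588, in H19, had a higher mean in T and was not called (adjusted p = 0.324).
A_30_P01023385: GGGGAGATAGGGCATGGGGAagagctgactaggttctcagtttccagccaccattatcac
A_30_P01023189: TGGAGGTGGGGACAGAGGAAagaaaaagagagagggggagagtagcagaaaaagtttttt
A_30_P01032903: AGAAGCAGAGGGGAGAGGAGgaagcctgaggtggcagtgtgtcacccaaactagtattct
A_30_P01017719: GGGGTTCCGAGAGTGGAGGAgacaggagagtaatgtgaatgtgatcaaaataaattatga
A_30_P01022842: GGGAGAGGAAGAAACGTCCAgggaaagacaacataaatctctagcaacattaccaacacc
A_30_P01018660: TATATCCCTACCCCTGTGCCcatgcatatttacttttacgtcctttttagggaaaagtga
A_30_P01021059: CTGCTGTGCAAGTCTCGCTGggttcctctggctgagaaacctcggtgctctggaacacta
A_30_P01021588: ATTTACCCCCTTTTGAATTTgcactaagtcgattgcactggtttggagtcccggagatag
The number of A or G among the capitals was 17, 17, 19, 15 and 16 in the 5 lower probes and 5, 8 and 5 in the last 3. Not every H19 probe was low in A and G, since A_30_P01028007 held 15.

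The third set holds 2 members on chromosome 1 and chromosome 6 that were lower in both DEN groups, again with the first 20 bases in capitals, and 2 probes of a chromosome 5 interval that consists of a repeated unit, with their common run of 27 bases in capitals.
A_30_P01024279: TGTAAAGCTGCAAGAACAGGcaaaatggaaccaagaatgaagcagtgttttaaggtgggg
A_30_P01023745: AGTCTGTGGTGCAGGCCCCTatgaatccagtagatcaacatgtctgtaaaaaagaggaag
A_30_P01023287: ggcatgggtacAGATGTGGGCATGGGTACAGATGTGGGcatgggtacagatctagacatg
A_30_P01028795: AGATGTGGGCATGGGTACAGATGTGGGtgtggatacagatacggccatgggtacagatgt
These held 14, 9, 14 and 14 A or G in their first 20 bases.

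How many members were on followed the array before it followed the group. In group C, 880 members were on for array C1, 291 for C2, 2927 for C3 and 1305 for C4. In group T, 1550 were on for T1, 900 for T2, 1153 for T3, 1530 for T4 and 1003 for T5. In group G the lowest number was 538 (array G2), the median 2345 and the highest 3270 (array G4). The range of T lay inside the ranges of both other groups. The number of other probes that were on ran the same way, from 12830 on C2 to 22252 on G4, and the spots well above background were between 15707 and 29765 per array, with none saturated. C3 and C4 carry the same RNA code, and yet 1672 members were on for C3 alone, against 50 for C4 alone and 1255 for both. For T4 and T5, which also share a code, the numbers were 588, 61 and 942. A member being on for 1 array and off for another was thus common between arrays of the same RNA code.

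Most members could be placed in the order of the arrays by brightness. With arrays ranked by the number of other probes that were on, 860 members (23.9%) were on exactly for the brightest arrays down to some rank, 1456 (40.4%) had 1 array out of that order, 925 (25.7%) had 2 and 360 had 3 or more. The 4 brightest arrays, G4, C3, G5 and G6, came from both C and G. For 716 members no other arrays were on. To take the array's signal level out of the question, a second call counted the 14144 brightest probes of each array as on, the same number for every array. By this equal-number call, 214 to 385 members were on in C (median 317.5), 182 to 230 in T (median 202) and 159 to 336 in G (median 272). The arrays lay much closer together by this call, and the ranges of all 3 groups still overlapped. Between C and T the overlap came from array C4 alone (214), while C1, C2 and C3 were at 385, 290 and 345. C4 shares its RNA code with C3.

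**Figure D1:**
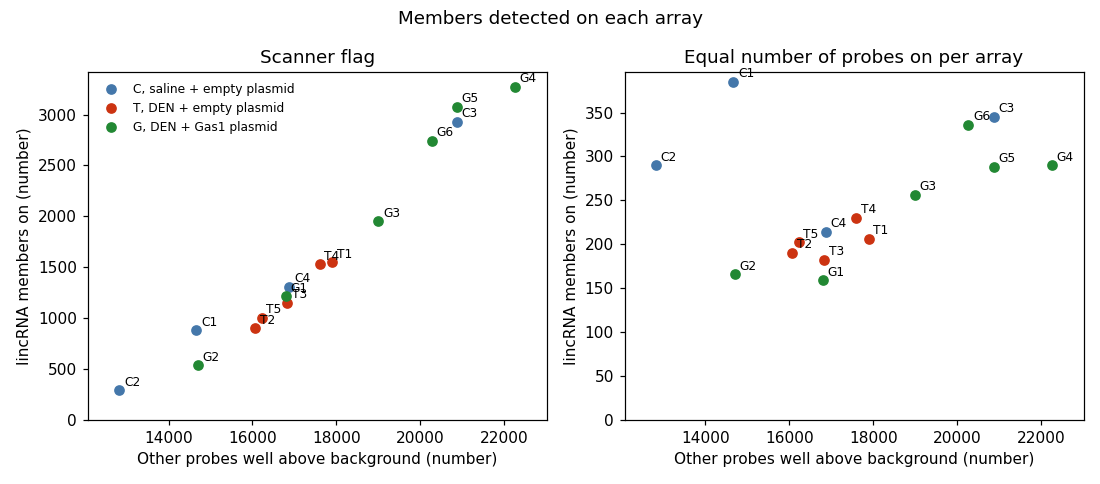
Each point is 1 of the 15 arrays, with the number of other probes well above background on the x axis and the number of members that were on on the y axis, by the scanner flag (left) or by the equal-number call (right). By the flag the number rose with the array's other probes from 291 on C2 to 3270 on G4 in all groups, and by the equal-number call it lay between 159 and 385.

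Few members separated the groups by detection. By the flag, 15 members were on for every array of T and for none of C, where 0.133% of all probes on the array were, but the equal-number call gave 3, and no member passed by both. In the other direction, 23 members were on for every array of C and for none of T (0.0682% of all probes), with 28 by the equal-number call and 7 by both. For G against C, 5 members were on in every array of G and in none of C (0.0503% of all probes), 3 by the equal-number call and 2 by both, and no member was on in every array of C and in none of G. Between G and T no member was on in every array of 1 group and in none of the other, by either call. There the flag gave 4 and 3 of all probes on the array. Over all probes, the equal-number call gave 81 on in T and off in C, and 94 the other way. It gave 20 on in G and off in C, and 19 the other way. For G and T it gave 1 on in G and off in T, and 11 the other way. Among the members that the flag separated, the limma test below called 3 of the 15, 9 of the 23 and 3 of the 5 with both counts of mice. These counts of 15, 23 and 5 rested on few arrays. Without C3/C4 the number on in T and off in C became 302 and that on in G and off in C became 185, without C2 the number on in C and off in T became 215, and without G2 the number on in G and off in T became 28. Leaving out T2 gave 38 on in T and off in C, and leaving out G2 or G6 gave 16 or 11 on in G and off in C.

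The levels of the members were then compared, as log2 signal after background correction and quantile normalization. Between T and C, 249 of 3601 members (6.91%) passed an adjusted p of 0.05 by limma, 86 of them higher and 163 lower in T, where 3.96% of all probes passed. With T4 and T5 averaged, 61 members passed (1.69%), 15 higher and 46 lower, where 1.25% of all probes passed, and all of the 61 were among the 249. The samples of T and C did not overlap for 995 members (27.6%; 352 higher and 643 lower), against 14.4% of all probes. Because the rule required members to vary between arrays, nothing is read from the excess over all probes. The median difference of the members was -0.03 on the log2 scale, and that of all probes was 0.00. Among the 249 the size of the difference had a median of 0.43 and ran from 0.23 to 1.81, and 15 differed by more than 2-fold, 14 of them lower in T. The lincRNA probes that were on for all arrays gave 79 calls of 1013 (7.80%) and 32 with 13 mice.

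The split of these calls between higher and lower depended on the scaling. With arrays scaled by their median instead, 258 members passed (7.16%, against 12.2% of all probes), but 232 were higher and 26 lower in T. Cyclic loess gave 18 (4 higher, 14 lower), 0.5% of members against 1.18% of all probes. The software's own processed signal gave 654 (44 higher, 610 lower), 18.2% against 7.74%, while the median of all probes then lay at -0.74. With slide as a term and RNA code as a random block, 121 passed (55 higher, 66 lower), 3.36% against 2.61% of all probes. Within slide 1 alone none passed, where 0.0308% of all probes did, and within slide 2 alone 13 did (0.361% against 0.18%). Without C1 the 249 calls became 26 (0.722%, against 0.772% of all probes), and without T3 82 (2.28%, against 1.55%). Without T4 there were 51 (1.42%, against 1.18%), without T5 63 (1.75%, against 1.26%), and without G6 382 (10.6%, against 4.99%). The share over all probes thus moved with the sample left out as well.

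Most members that passed with both counts of mice were near the detection limit. The 46 that fell in T had a median difference of -0.49 (range -1.13 to -0.28), and 40 of them were on for no array of T, while 15 were on for every array of C. The 15 that rose had a median of 0.37 (range 0.26 to 0.96), and 5 of them were on for no array of C. The group means of all 61 lay between 5.95 and 7.35. For a member that was on for no array of a group, only a limit is known there, and its fold is given as "at least".

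Markers of the liver's cell types were compared beside these counts, and those of hepatocytes were abundant in every sample. Of 7 hepatocyte probes, all on for every array, Apoa1 (an apolipoprotein) was higher in T by 0.61 and Ttr (transthyretin) and 1 of the Cyp2e1 probes were lower by -1.01 and -0.59, of which Ttr passed with 13 mice too. A single Kupffer cell probe, for the macrophage surface protein Emr1 (now Adgre1), rose by 0.45, while the other Emr1 probe differed by 0.13 and was not called (adjusted p = 0.276). No probe of the cholangiocyte, endothelial, stellate, lymphocyte, neutrophil, erythroid or cycling cell lists passed, and of the exocrine pancreas list Cela1 was higher by 0.83 without passing with 13 mice. The mean level of the Kupffer cell list was 6.99 to 7.30 in C, 7.33 to 7.73 in T and 7.32 to 7.66 in G, that of the lymphocyte list 6.44 to 6.51, 6.59 to 6.68 and 6.50 to 6.62, and that of the erythroid list 9.75 to 10.49, 10.67 to 10.91 and 10.10 to 11.38. The Kupffer cell mean counted each Emr1 probe under its older and its current name, which gave these probes more weight. Whether its ranges in C and T stay apart without this weight was not examined. Hepatocyte levels were 14.99 to 15.10, 14.58 to 15.03 and 14.67 to 15.23. The part of these cells in the differences of the members was not tested.

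The member with the largest fall was A_30_P01022842 on chromosome 12 (chr12:110944403-110988678, plus strand, 10 probes of which 1 was a member). It lies 1663 bases from the probe of Mirg, a noncoding gene of the imprinted Dlk1-Dio3 region, on the same strand. Its level was 7.84 in C1, 6.83 in C2 and 7.23 in C3/C4. In T1 to T5 it was 6.08, 6.23, 6.21, 6.19 and 6.14, and in G it ran from 6.13 to 7.18 with a median of 6.63. All T samples were below all C samples, and those of G spanned the gap between them. The difference between T and C was -1.13 ± 0.22 (SE; limma adjusted p = 0.0194, and 0.0466 with 13 mice), at least 2.05-fold lower in T. It was among the 7 members on in C and off in T by both calls. The Mirg probe itself differed by -0.29 (adjusted p = 0.304). Also among the 61, and singled out after their values were seen, were A_30_P01028685 (-0.55, chr12:111079867-111080561) and A_30_P01020165 (-0.37, chr12:111287772-111333890) of the same stretch of chromosome 12. The gene probes of Meg3, of the same region, differed by 0.84, -0.17 and -0.24 (adjusted p = 0.450, 0.560 and 0.262). That of Dio3 differed by -0.23 (adjusted p = 0.399). A fall of the region as a whole is therefore not read from these members.

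Larger differences with more spread passed with 14 samples and not with 13 mice. A_30_P01023385 (chr15:38639259-38639546, minus strand) was at 8.55, 7.40 and 8.10 in the C samples, at 5.83, 6.38, 6.44, 6.26 and 6.10 in T, and between 6.0 and 8.06 in G (median 7.28). Its difference between T and C was -1.81 ± 0.42 (SE), 3.51-fold, with an adjusted p of 0.0315 that became 0.0682 with 13 mice. The groups T and C did not overlap, whereas 2 samples of G, G2 and G3, were as low as T and the others lay between or with C. A_30_P01023189 (chr15:66682293-66722977, plus strand) was at 8.16, 7.19 and 8.02 in C, at 6.27 to 6.55 in T, and at 6.32 to 8.18 in G, a difference of -1.35 between T and C (adjusted p = 0.0483, and 0.0936 with 13 mice). A_30_P01032903 (chr7:112934153-112943178, minus strand) differed by -1.35 as well (0.0499 and 0.0945). The pattern over samples was the same, with G2 and G3 at 6.22 and 6.24 and the other G samples at 7.39 to 8.10. A_30_P01017719 (chr7:100195448-100195894, minus strand; -1.25, adjusted p = 0.0323) and A_30_P01030593 (chr4:141527564-141547339, minus strand; -1.15, adjusted p = 0.0350) were on for every array of C and for none of T by both calls, at least 2.14-fold and 2.02-fold lower in T. With 13 mice neither passed. A_30_P01019746 (chr12:111617728-111665403, minus strand) differed by -1.19 and A_30_P01024857 on chromosome 18 by -1.17, with the same limit. A_30_P01027455 (chr5:137392195-137426421, minus strand), on in C and off in T by both calls, differed by -0.98 and was not called (adjusted p = 0.0533). A_30_P01022842 and the 7 members called lower in the preceding sentences came from 5 chromosomes, and no pair of these 8 shared more than 11 bases in a row on either strand. Over the 14 samples, however, the levels of any 2 of them correlated by 0.90 to 0.99 (Pearson's r). All 8 were chosen as lower in T, so part of this correlation is given by the choice. Whether these members fell separately was not tested, and they are not read as 8 separate falls.

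The 4 chromosome 2 members with shared sequence, near a zinc finger cluster, had higher means in both DEN groups. Elsewhere on chromosome 2, the 4 members that passed with both counts of mice, named after their values were seen, fell in T. They were A_30_P01024849 (-0.81), A_30_P01029034 (-0.64), A_30_P01032639 (-0.61) and A_30_P01021990 (-0.37). A_30_P01028205 (chr2:175640275-175701875, plus strand), 10371 bases from the probe of Gm14308, a gene of a zinc finger cluster, was at 6.10, 5.82 and 5.93 in C and at 6.81, 6.61, 6.91, 7.10 and 7.13 in T. In G it ran from 6.62 to 7.60 (median 7.07). No DEN sample overlapped with a C sample. It rose by 0.96 ± 0.18 in T (adjusted p = 0.0153, and 0.0413 with 13 mice; at least 1.47-fold) and by 1.19 ± 0.18 in G (adjusted p = 0.0207, and 0.0373 with 13 mice; at least 1.72-fold). It was on for every array of T and G and for none of C by the flag. A_30_P01029117 (chr2:175140765-175141331, minus strand), 30339 bases from the Gm14440 probe, was at 5.99, 5.88 and 6.04 in C, at 6.93, 6.40, 7.25, 7.26 and 7.25 in T, and between 6.81 and 7.86 in G. It rose in G by 1.37 ± 0.22 (adjusted p = 0.0267, and 0.0425 with 13 mice; at least 1.98-fold), and in T its difference of 1.05 passed with 14 samples (adjusted p = 0.0280) and not with 13 mice (0.0661).

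The other probe pair of the cluster repeated this pattern with much of the same sequence. A_30_P01026482 and A_30_P01032435 lie in 1 interval (chr2:174945941-174946507, minus strand). In G against C they rose by 1.15 (adjusted p = 0.0308, and 0.0425 with 13 mice) and by 1.24 (0.0257 and 0.0399). In T against C they differed by 0.92 (0.0271 and 0.0619) and 0.95 (0.0226 and 0.0564). These 4 members were 4 of the 5 that were higher in G than in C. Since each shares a run of 23 to 48 bases with at least 1 of the others, their signals cannot be told apart by locus. The gene probe of Gm14440 differed by 0.77 between T and C (adjusted p = 0.0303, and 0.0690 with 13 mice) and was higher in G than in C by 0.96 (0.0391 and 0.0464). Those of Gm14308 (0.41, adjusted p = 0.191) and Gm14439 (0.09, adjusted p = 0.643), the nearest to the other members, were not called for T against C.

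**Figure D2:**
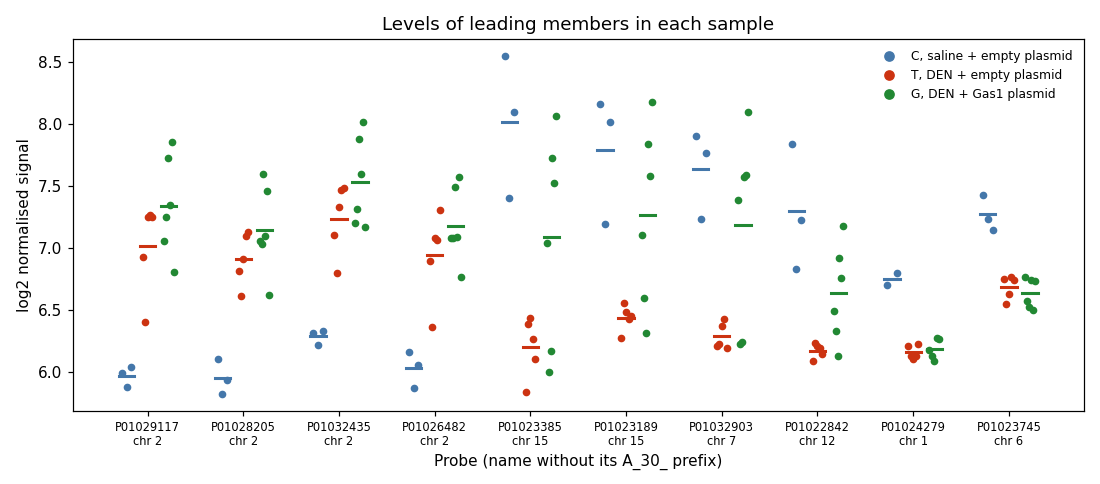
Log2 normalised signal of 10 members (x axis, with chromosome) in each of the 14 samples as points, with a bar for the group mean. In the 4 chromosome 2 members all T and G samples lie above all C samples, in the 4 members of chromosomes 15, 7 and 12 T lies below C while G spans the range of both, and in the last 2 members T and G lie below C together.

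In T against C, 2 further members on chromosome 17 were among the 6 largest increases. A_30_P01028048 (chr17:35080914-35090009, minus strand), 17027 bases from the Neu1 probe, differed by 0.87 (adjusted p = 0.0414), and A_30_P01027078 (chr17:88993214-89025839, plus strand) by 0.58 (adjusted p = 0.0291). Neither passed with 13 mice (0.0914 and 0.0665). Smaller increases passed with both. A_30_P01021059 (chr10:60473030-60535340, minus strand) rose by 0.44 and A_30_P01018660 (chr7:118248833-118267766, minus strand) by 0.36, from 6.10, 6.06 and 6.11 in C to 6.38, 6.46, 6.39, 6.51 and 6.52 in T.

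Between G and T no member passed by limma with either count of mice, where 0.25% of all probes passed with 14 samples and 0.0413% with 13 mice. At an unadjusted p under 0.05 there were 685 members (19%), against 11.3% of all probes. The samples did not overlap for 66 members (1.83%; 29 higher and 37 lower in G), against 1.93% of all probes. The smallest p-values among members lower in G belonged to A_30_P01018660, whose difference was -0.27 (adjusted p = 0.0576), A_30_P01031693 (-0.37, adjusted p = 0.0612) and A_30_P01021059 (-0.28, adjusted p = 0.0781). A_30_P01031693 (chr1:162965309-162970704, minus strand) lies 328 bases from a probe of Gas5, a noncoding host gene of small nucleolar RNAs, on the opposite strand. It was at 6.28, 6.26 and 6.24 in C, at 6.44, 6.52, 6.85, 6.83 and 6.82 in T, and between 6.22 and 6.44 in G. Its T samples lay above those of both other groups. Among members higher in G the smallest p-values were those of A_30_P01023620 (0.47, adjusted p = 0.0969), A_30_P01018389 (0.29, adjusted p = 0.100) and A_30_P01022616 (0.37, adjusted p = 0.101). Without T1, 15 members passed (0.417%, against 0.708% of all probes), all lower in G.

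Between G and C, 8 members passed (0.222%), 5 higher and 3 lower in G, where 0.226% of all probes passed. With 13 mice 7 passed, where 0.122% of all probes did, and 6 passed with both. At an unadjusted p under 0.05 there were 605 members (16.8%), against 11.8% of all probes, and the samples of the groups did not overlap for 186 (5.17%), against 4.98% of all probes. Beside the 4 members on chromosome 2, A_30_P01022914 (chr6:31267612-31293337, plus strand) was higher in G by 0.30 (adjusted p = 0.0435, and 0.0511 with 13 mice) and rose in T by 0.36 (0.00817 and 0.0151). The count of 8 rested on single samples, being 1 without C2, 3 without G3, 4 without G2, 5 without G1 or G5, 21 without G6 and 66 without C3/C4. Over all probes the share that passed was 0.0449% without C2 and 1.06% without C3/C4. Within slide 1 none passed and within slide 2 1 did (0.0278%, against 0.0252% of all probes). Slide as a term kept the count at 8 (0.222%, against 0.372% of all probes). Median scaling, cyclic loess and both of the methods' t-tests gave 0, and at most 0.0126% of all probes passed with any of these.

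The 3 members that were lower in G were lower in T as well. A_30_P01023745 (chr6:66216675-66234475, minus strand) was at 7.43, 7.24 and 7.15 in C, at 6.75, 6.55, 6.63, 6.76 and 6.74 in T, and at 6.50 to 6.77 in G (median 6.65). It fell by 0.58 in T (adjusted p = 0.00553, and 0.0151 with 13 mice) and by 0.63 in G (0.0143 and 0.0209). No sample of T or G reached the lowest C sample. A_30_P01024279 (chr1:69555180-69555559, minus strand) fell by 0.59 in T, at least 1.40-fold (0.00353 and 0.00974), and by 0.56 in G (0.0149 and 0.0209). Its values in C3/C4 and G4 were missing, so its C group held 2 samples, at 6.70 and 6.80, against 6.10 to 6.23 in T. A_30_P01032446 (chr1:121982840-121983386, minus strand) fell by 0.56 in T and was lower in G by 0.44 (adjusted p = 0.0440, and 0.0670 with 13 mice). T and G were compared with the same C samples in these values.

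The base composition of the probe ran with the difference between T and C across the members. This measure was chosen after the values were seen. Over 3601 members, Pearson's r between the difference and the number of A or G in the first 20 bases was -0.54, and it was -0.46 for the middle 20 bases, -0.18 for the last 20 and -0.14 for the GC content of the whole probe. These are descriptions across probes that share the same samples and no replicates, and no p is given. Among other probes of the array that were on for 3 to 14 arrays r was -0.44 (n = 9203), and over the lincRNA probes on for 0 to 2 arrays it was -0.27 (n = 11637). It was -0.13 over the lincRNA probes on for all arrays (n = 1013) and 0.03 over the other probes on for all arrays (n = 12126). For the members, r was 0.48 with the difference G minus T and -0.35 with G minus C. Among the 161 members with 0 to 5 A or G the median difference was 0.16, and 8 were called higher in T (1 with both counts of mice) and none lower. Among the 220 members with 16 or more the median was -0.32, and none was called higher and 38 (17.3%) lower (10 with both counts of mice). The change from one to the other was steady, as the plot of the difference by composition shows.

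**Figure D3:**
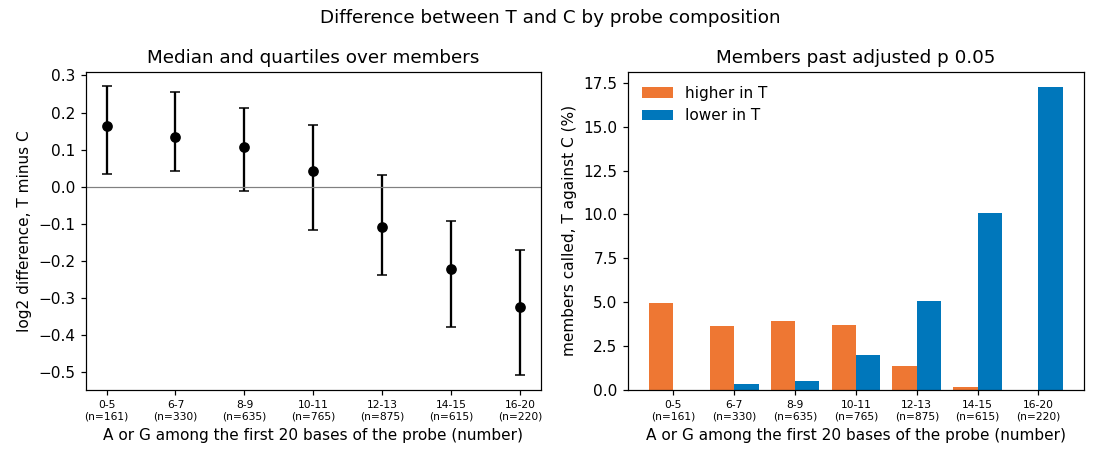
Members grouped by the number of A or G in the first 20 bases of the probe (x axis, with the number of members). Left, median (point) and quartiles (bar) of the log2 difference T minus C, falling from 0.16 to -0.32. Right, percent of members past an adjusted p of 0.05 that were higher (orange) or lower (blue) in T, the latter rising from 0 to 17.3%.

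The sets of members described above differed in the same measure. The 163 members lower in T had a median of 14 A or G in the first 20 bases, and 144 of them had 12 or more. Those 86 that were higher had a median of 9, and all members had a median of 11. With both counts of mice, the 46 that fell had a median of 14, with 12 or more in 40 of them, and the 15 that rose had a median of 8. The 14 members lower by more than 2-fold had a median of 16.5. Of the 23 members on in C and off in T, 22 had 12 or more (median 14), and the 15 on in T and off in C had a median of 7.

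The relation was also described sample by sample, and it did not follow the groups alone. In each sample, r was taken between the level of a member relative to its mean over all 14 samples and its number of A or G. Opposite signs in C and T therefore restate in part the r with the difference T minus C. It was 0.50 in C1, 0.08 in C2 and 0.47 in C3/C4, and in T1 to T5 it was -0.39, -0.28, -0.36, -0.44 and -0.36. In G it ranged from -0.38 (G3) to 0.41 (G6). G2 and G3, in which A_30_P01023385 and A_30_P01032903 were as low as in T, had values of -0.27 and -0.38, and G4, G5 and G6 had 0.32, 0.19 and 0.41. Over the probes on for all arrays r lay between -0.07 and 0.10 in every sample. Between the arrays of 1 RNA code it was 0.29 for the difference C3 minus C4 and -0.13 for T4 minus T5.

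**Figure D4:**
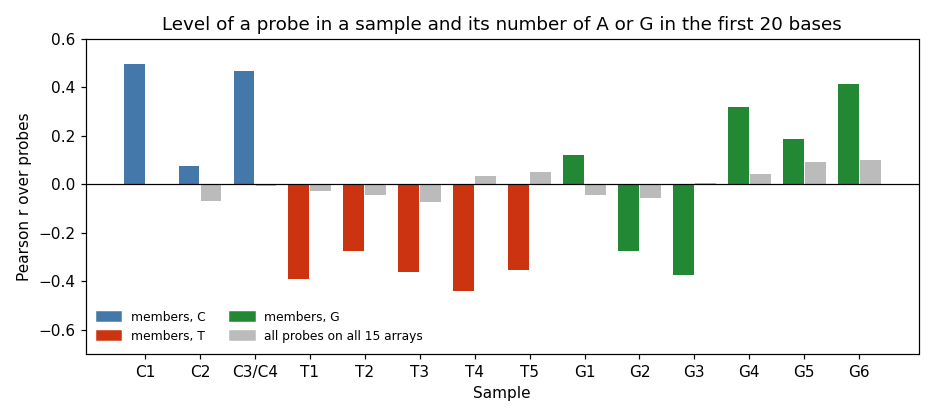
Pearson's r (y axis) across probes between a probe's level in a sample relative to its mean and its number of A or G in the first 20 bases, for members (coloured by group) and for every probe of the array that was on for all 15 arrays (grey). The bars of members are positive in C, negative in all 5 T samples and of both signs in G, while the grey bars stay between -0.07 and 0.10.

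The comparison was repeated with adjusted levels of the members and of the other probes that were on for 3 to 14 arrays. In every sample, these levels were adjusted for this composition along a line fitted on those other probes. The remaining probes of the array were not adjusted, and the shares of all probes given here include them. Then 179 members (4.97%) passed for T against C (62 higher, 117 lower), against 3.15% of all probes. With 13 mice 39 passed (1.08%; 13 higher, 26 lower), against 0.979% of all probes, and 20 of them were among the 61. All 61 kept the sign of their difference. The r over members became -0.07, and the median size of their difference went from 0.17 to 0.13. The member near Mirg, A_30_P01022842, had a difference of -0.91 after the adjustment (adjusted p = 0.0191, and 0.0470 with 13 mice), and A_30_P01024279 had -0.45 (0.00739 and 0.0168). A_30_P01023745, with 9 A or G, had -0.66 (0.00502 and 0.0149). Of members that were higher, A_30_P01022914 had 0.33 and A_30_P01019499 (chr7:126872550-126886125) 0.56, and both passed with both counts of mice. A_30_P01028205 had 0.89 in T (adjusted p = 0.0197) and no longer passed with 13 mice (0.0517), and A_30_P01018660 and A_30_P01021059 were not among the 20 either. For G against T 1 member passed after the adjustment (0.0278%, against 0.226% of all probes). For G against C 11 passed (0.305%), close to the share of all probes (0.251%). What gives rise to the relation with composition was not tested.

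The members fell into 2243 of the 4622 intervals that the array covers. In 1394 of these there was a single member, in 525 there were 2 and in 324 there were 3 or more, at most 9. Other probes of the same interval were often in another class, since 335 of the intervals also held a probe on for all arrays and 1840 a probe on for 0 to 2 arrays. Of the 849 intervals with several members, 451 had differences of 1 sign between T and C. Probes of 1 interval share a target and are no replicates, so their agreement was counted and not tested. A called member was present in 232 intervals, and in 16 of these 2 or more members were called. With both counts of mice, 3 intervals held more than 1 call. At chr5:143196275-143207575 (minus strand), all 3 probes were members and differed by -0.28, -0.40 and -0.31, of which the first and the last fell with both counts of mice. At chr17:88890039-88905680 2 of 4 members fell (-0.41 and -0.38), and at chr8:114477602-114488627 2 of 3 members did (-0.55 and -0.42), while the other members there differed by -0.19, 0.22 and 0.14 and were not called.

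All 5 probes of the H19 interval were members, and none of them was called in any comparison with 14 samples or 13 mice. At A_30_P01021588 (chr7:149761435-149764019, minus strand) the level was 5.97, 5.95 and 5.96 in C and 6.63, 7.59, 7.62, 7.38 and 7.40 in T. In G it was 6.07 to 6.77 in 5 samples and 10.26 in G6. All T samples were above all C samples, and G6 was far above every other sample. The difference between T and C was 1.36 ± 0.73 (SE), with an adjusted p of 0.324, and between G and C it was 1.02 (adjusted p = 0.626). The means of T and C differed by at least 1.95-fold given the detection limit. That bound leaves out the spread between samples, and no least change is read from it. At the second probe, A_30_P01025068, T again lay above C and G6 above all others, with a difference of 1.18 (adjusted p = 0.343) and 9.85 in G6. The other 3 probes of the interval differed by 0.47, 0.39 and 0.25 and were at 7.56 to 7.90 in G6. Other settings called 3 of these probes for T against C, namely leaving out G6, fitting only the compared groups and the replicate block, and for A_30_P01021588 the processed signal too. Without G6 the adjusted p was 0.00609 at A_30_P01021588, 0.00823 at A_30_P01025068 and 0.00998 at A_30_P01026972, with the same differences of 1.36, 1.18 and 0.47. These 3 probes were called in 4, 3 and 3 of 36 settings. The gene probe of H19, which is no member, differed by 2.57 (adjusted p = 0.145).

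Another 2 intervals with 3 members each were chosen for the size of their differences. At chr8:19792940-19798868 (plus strand), A_30_P01028290 was at 6.06, 6.48 and 7.0 in C, at 8.34, 6.45, 7.68, 7.52 and 7.64 in T and at 7.33 to 8.44 in G. T2 lay among the C samples and the other T samples above them. The differences of its 3 probes were 1.01, 0.82 and 0.52 between T and C and 1.26, 1.11 and 0.58 between G and C, and none was called (lowest adjusted p = 0.115 and 0.145). At the repeat interval chr5:75186625-75186910 (plus strand) A_30_P01023287 and A_30_P01028795 both differed by -0.95, with adjusted p of 0.0354 and 0.0576, and the third probe by -0.35. The first did not pass with 13 mice (0.0718).

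**Figure D5:**
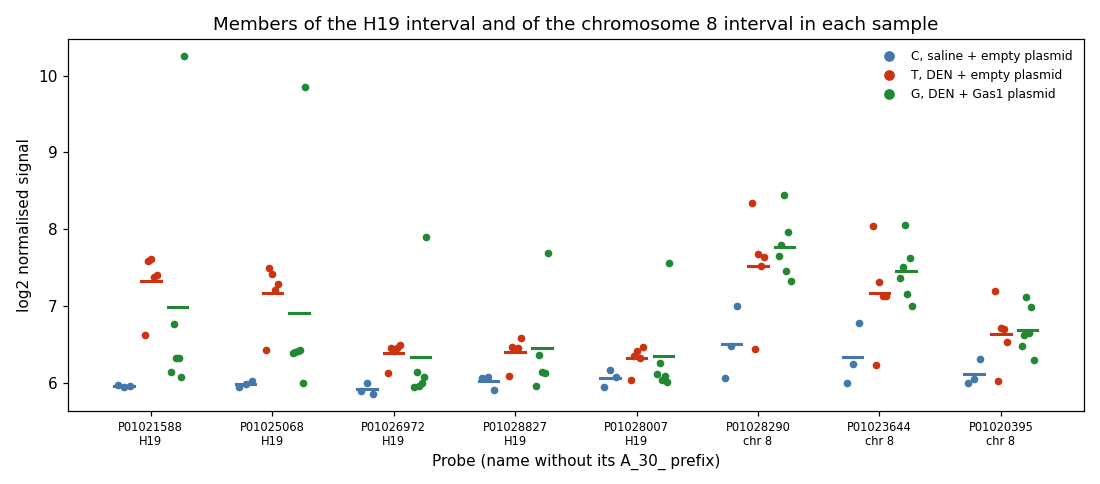
Log2 normalised signal (y axis) of the 5 members in the H19 interval and the 3 in the chromosome 8 interval (x axis), with 1 point per sample and a bar for the group mean. In H19, G6 stands above all other samples at every probe (10.26 at A_30_P01021588), and at A_30_P01028290 of the chromosome 8 interval 4 of 5 T samples and all G samples lie above the C samples.

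Other intervals with a name in the files held members that were not called in any comparison. They were 4 of the 5 probes of an interval named KCNQ1ot1, 4 of the 5 of TUG1, all 3 of NEAT2 (Malat1), 1 each of TSIX (the antisense partner of Xist) and lincP21 (a p53 target), and 2 of 5 in an interval 145 to 310 bases from a probe of Airn. For NEAT2 the differences between T and C were 0.28, 0.19 and 0.35 (adjusted p = 0.397, 0.439 and 0.278). For TUG1 they were 0.09, 0.17, 0.08 and 0.19, with a smallest adjusted p of 0.164. The interval named KCNQ1ot1 lies on the plus strand, opposite to the gene probe of Kcnq1ot1, so its values are not read as that RNA. It gave -0.17, -0.12, -0.20 and -0.31 (smallest adjusted p = 0.0678), the first, A_30_P01026203, with a value in 1 sample of C alone. TSIX gave -0.40 (0.0596) and lincP21 -0.11 (0.558). A list of 44 noncoding RNA genes known by name was looked up among the gene probes, where 22 had 41 probes. Of these none was called between T and C or between G and C, and Zfas1 was higher in G than in T by 0.57 (adjusted p = 0.0494, and 0.145 with 13 mice). The median difference of the list was 0.06.

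The members resembled the other lincRNA probes in position. Of the members that could be placed, 19% had a gene probe within 5000 bases and 10.9% had one on the same strand, against 23% and 16.6% of the lincRNA probes on for all arrays and 18.3% and 8.03% of those on for 0 to 2. The median GC content was 45% for members and for probes on for all arrays, and 43.3% for the rest. Within 1 kb of the 3′ end of the interval lay 37.1%, 30.4% and 40.8% of the probes in the same order. Among the 61 members that rose or fell in T, 16 had a gene probe within 5000 bases, 12 of them on the same strand. The gene probe differed in the same direction for 9 of the 16, and none of the 16 was called.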

How the data were processed

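Liver RNA of 14 samples on 15 single-colour arrays was compared. The authors extracted the intensity of each spot with Feature Extraction 10.7.3.1, and the deposited intensity files hold the mean signal, the local background and the flags of each spot without normalization between arrays. The deposited table of the whole series holds the authors' log2 values after normexp and quantile normalization and served as an alternative only. The members and lists were chosen with earlier results of these data known.

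From the intensity, the mean signal and median background went through normexp (offset 50), and log2 values of the 59305 spots that are no controls were quantile normalized. Spots with an outlier flag were dropped, and spots of 1 probe averaged. The median absolute difference to the authors' log2 table was 0.0028. Groups were compared by limma (version 3.58.1, under R version 4.3.3, tables read with data.table version 1.17.8), with 3 groups in 1 model (3, 5 and 6 samples), lmFit and eBayes without trend, and Benjamini-Hochberg adjustment over all 55681 probes at a threshold of 0.05. The scripts were tested on simulated data. The flag "well above background" uses the software's own multiplier of 13, and a probe was on where at least 50% of its spots carried it. Arrays have no read depth, so the number of mice limits the precision. The labels do not say which mice shared a litter, and p-values measure the spread between these samples. A bound on a fold sets the mean of the brighter group against the weakest signal well above background in the dimmer one, or against the probe's own level where that is higher. It does not take in the spread between samples. Named members were, for each comparison, the 6 largest rises and falls among called members whose groups did not overlap, or the 3 smallest p-values in each direction where none was called, the 4 largest of the members that both detection calls separated, and the 3 intervals of 3 or more members with the largest mean difference. Positions refer to mm9 as in the files, 26 members have none, and gene names were updated through RefSeq. A mm9 genome and its exons were not used here. The alternatives were other scalings, background settings, filters, slide and replicate terms, tests and samples left out. Averaging T4 and T5 and the composition adjustment were chosen after seeing the data.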

Additional observations from a re-analysis of the deposited data

Results flagged for a closer look

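The levels of named members in T and in G were checked for a sample that stood apart from the rest of its group. The numbers of members and of other probes on per array were checked likewise in all 3 groups. In 9 of these 111 checks (8.11%) 1 stood apart, where chance gives about 1 in 20, and all 9 were levels of named members. Of these, 8 concerned the H19 interval. G6 stood above the other G samples at A_30_P01021588 (10.26), A_30_P01025068 (9.85), A_30_P01026972 (7.90), A_30_P01028827 (7.69) and A_30_P01028007 (7.56), all on the log2 scale. T1 stood below the other T samples at A_30_P01021588 (6.63), A_30_P01025068 (6.43) and A_30_P01026972 (6.13). The probes share 1 interval, so these are not separate events. At A_30_P01018660, G3 (6.40) stood above the other G samples and within the range of T.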

How the results depend on the processing

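No difference of a named member that was called reversed under any alternative. For T against C (249 members called), cyclic loess gave 18, the processed signal 654, no normexp offset 100, all 15 arrays kept apart 401, slide as a term 121, slide 1 alone 0, slide 2 alone 13, the array's signal level as a covariate 487, the methods' t-test 21 with equal and 0 with unequal variances, only the compared groups 420, members by the equal-number call 96, T4 and T5 as 1 mouse 61, and composition adjusted with T4 and T5 as 1 mouse 39. In these settings the share called over all probes ran from 0.0018% (t-test with unequal variances) to 7.74% (processed signal). Leaving out 1 sample gave 26 to 382, with 0.772% (without C1) to 4.99% (without G6) of all probes called. For G against T (0 called), cyclic loess gave 4, the processed signal 1, no background subtraction 1, the filter on the arrays of a group 1, all 15 arrays 2, the signal covariate 1, only the compared groups 2 and the composition adjustment 1, and leaving out 1 sample 0 to 15. For G against C (8 called), median scaling and cyclic loess gave 0, the processed signal 4 (median of all probes -0.51), no offset 4, all 15 arrays 13, slide 1 alone 0, slide 2 alone 1, the signal covariate 5, both t-tests 0, only the compared groups 2 and the equal-number call 5, and leaving out 1 sample 1 to 66. Over all probes, the share called in the settings listed ran from 0.0144% to 0.947% for G against T. For G against C it ran from 0% to 0.632%. With 1 sample left out these shares ran from 0.0323% to 0.708% and from 0.0449% to 1.06%. By a laxer flag (significantly above background), 9526 lincRNA probes would be members, and by the equal-number call 748. On in T and off in C (15) became 6 by the laxer flag, 3 by the equal-number call, and 57 and 165 within slides 1 and 2 (15 to 302 with 1 sample left out). On in C and off in T (23) became 35 by the laxer flag, and 57 and 239 within the slides (24 to 215). On in G and off in T (0) became 4, and 214 and 6 within the slides (0 to 28), and on in T and off in G (0) became 4 and 9 within the slides (0 to 1). On in G and off in C (5) became 3 by the equal-number call, and 106 and 60 within the slides (5 to 185), and on in C and off in G (0) became 2 and 7 within the slides (0 to 2). Within a slide fewer arrays have to agree. The cause of the other changes was not tested. Of 23 called differences of named members, 6 were still called with median scaling, 0 with cyclic loess, 17 with the processed signal, 16 with slide as a term, 8 with T4 and T5 as 1 mouse and 18 after the composition adjustment. The replicate numbers did not pair the samples, since over 11 pairs of the same number the deviations correlated by -0.37 to 0.34 and 2 of 14 samples correlated best with their own number. With the replicate block, 275 members were called between T and C, 3 between G and T, and 10 between G and C. Of all probes, 3.18%, 0.163% and 0.35% were called in the same order.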
